A study of Mus musculus with 2 samples.

Results

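The genes described are 10 of the 31053 genes counted in cardiac B cells of wild-type C57BL6/J mice. They were chosen by name and by role, as class I heavy chains and the genes that load them, with no threshold on their values, though with earlier results of these data known: H2-K1, H2-D1, H2-Q4, H2-Q6, H2-Q7, H2-T23, B2m, Tap1, Tap2 and Tapbp. Live CD45+ B cells were sorted from hearts of neonatal mice (labelled 2 weeks old, and 15 days in the sample title, males and females pooled) and of adult mice (8 weeks old, males), 6 mice per age. Each age gave 1 droplet library, no cell can be assigned to a mouse, and age and library cannot be told apart. Sex, which differed in part between the ages, was followed through sex-linked transcripts. The deposited tables hold 26866958 neonatal and 49500780 adult UMIs, where a UMI (unique molecular identifier) marks 1 captured mRNA molecule.

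Levels were measured in droplets with at least 2000 gene UMIs, at most 10% mitochondrial UMIs and a Cd79a UMI, which left 2077 neonatal cells with a median of 6000 UMIs and 3611 adult cells with a median of 6131 UMIs. The B cell markers Cd79a, Cd79b and Ms4a1 summed to 5835 CPM (a gene's share of the summed UMIs of the cells, scaled to 1e+06) in neonatal and 5072 CPM in adult cells, and at least 2 of their UMIs were held by 99.9% and 100% of cells. Of the other markers, 6 macrophage genes summed to 90.4 and 16.3 CPM, 7 T cell genes to 10.7 and 13.8 CPM, 3 NK cell genes to 1.59 and 2.48 CPM, and 4 endothelial genes, with Pecam1 foremost, to 137 and 117 CPM. At least 2 endothelial marker UMIs were held by 27.6% of neonatal and 25.4% of adult cells. Such a cell is not thereby shown to be of another type. The 3 neutrophil genes had 410 UMIs in neonatal cells, of which 2 cells held at least 2, and 0 UMIs in adult cells. The 2 libraries had 110 barcodes in common with at least 500 UMIs in both, of which 2 were cells in both. Cells that held at least 3 of Ifit1, Ifit3, Isg15, Rsad2 and Usp18, genes that type I interferon induces, are called interferon cells. They were 10 neonatal cells (0.481%, exact 95% interval 0.231 to 0.884%) and 217 adult cells (6.01%, 5.26 to 6.83%). At 2000 UMIs per cell these shares were 0.0963% and 2.13%. Of the 5 genes, Ifit1 had 1.59 and 28.7 CPM, Ifit3 3.96 and 63.1, Isg15 9.39 and 52.8, Rsad2 4.27 and 17.3, and Usp18 2.19 and 18.1 in neonatal and adult cells. All intervals given are exact, at 95%, and stand for counting error alone. With 1 library per age there is no p-value, and each difference is between 2 libraries.

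MHC class I molecules display peptides from inside the cell to CD8+ T cells. A polymorphic heavy chain pairs with beta-2-microglobulin in the endoplasmic reticulum. The proteasome cuts the peptides, the TAP1 and TAP2 transporter carries them across the membrane, and tapasin, the product of Tapbp, holds the empty molecule to the transporter until a peptide binds. Nearly all nucleated cells make the classical heavy chains, while the non-classical Q and T chains have narrower patterns and some are ligands of NK cell and T cell receptors. Interferons raise most genes of this pathway, in part through STAT2, IRF1 and the class I transactivator NLRC5.

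In the annotation of GRCm38, 9 of the 10 genes lie on chromosome 17 in the MHC. H2-K1 spans 33996017 to 34000347 on the minus strand, H2-D1 35262730 to 35267499, H2-Q4 35379617 to 35385290, H2-Q6 35424850 to 35430055, H2-Q7 35439155 to 35443773 and H2-T23 36029773 to 36032855 on the minus strand. Tapbp lies at 33915899 to 33929292, Tap1 at 34187553 to 34197225 and Tap2 at 34203527 to 34216321. B2m is apart from them on chromosome 2, from 122147686 to 122153083.

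The 250 bases before the RefSeq start are shown for H2-K1, H2-Q6 and H2-Q7, the 3 genes whose levels differed most between the libraries, and in no case did they overlap an annotated exon. The windows are chr17:34000348-34000597 (minus strand), chr17:35424600-35424849 and chr17:35438905-35439154 of GRCm38.p6, written 5′ to 3′. Capitals mark GGGGATTCC, letters of the kind that NF-kB binds, and GAANNGAAA, letters of the kind that interferon-activated factors bind, each searched on both strands.
H2-K1: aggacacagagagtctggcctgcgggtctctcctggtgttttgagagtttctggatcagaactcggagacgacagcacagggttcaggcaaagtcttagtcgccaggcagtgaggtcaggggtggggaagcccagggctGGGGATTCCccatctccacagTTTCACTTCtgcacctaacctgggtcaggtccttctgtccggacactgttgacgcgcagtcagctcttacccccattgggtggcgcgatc
H2-Q6: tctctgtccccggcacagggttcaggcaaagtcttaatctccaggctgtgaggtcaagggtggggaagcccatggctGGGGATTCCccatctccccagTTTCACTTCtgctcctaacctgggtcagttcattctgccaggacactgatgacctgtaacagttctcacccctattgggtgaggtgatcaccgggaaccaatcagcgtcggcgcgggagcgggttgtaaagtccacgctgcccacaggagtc
H2-Q7: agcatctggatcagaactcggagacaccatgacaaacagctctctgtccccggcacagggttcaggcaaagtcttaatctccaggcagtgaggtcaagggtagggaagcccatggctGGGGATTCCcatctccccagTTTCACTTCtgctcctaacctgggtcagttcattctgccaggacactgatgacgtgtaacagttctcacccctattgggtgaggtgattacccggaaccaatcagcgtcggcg

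In each of the 3 windows GGGGATTCC stood on the gene's strand and GAANNGAAA, as GAAGTGAAA, on the opposite strand downstream of it. Between the end of GGGGATTCC and the start lay 102 bases in H2-K1, 164 in H2-Q6 and 124 in H2-Q7. In gapped alignments H2-Q6 and H2-Q7 had 205 identical bases in 210 aligned pairs, and H2-K1 had 169 of 185 with H2-Q6. The unrelated window of B2m had 154 of 200 with H2-K1. With gaps counted, identity was 70.7% of 290 columns for H2-Q6 and H2-Q7. It was 68.5% of 276 for H2-K1 and H2-Q7, which had 189 identical bases in 224 aligned pairs. For H2-K1 and H2-Q6 it was 53.7% of 315, and for H2-K1 and B2m 51.3% of 300. The windows of H2-K1 and H2-Q6 are offset, with 102 and 164 bases after GGGGATTCC, and an offset adds gap columns. The share of all columns is therefore not a measure of likeness alone. Among windows of the same length before 27025 RefSeq genes, 0.218% held GGGGATTCC, 6.34% held GAANNGAAA and 8 genes held both. Of those 8 genes 4 were H2-K1, H2-D1, H2-Q6 and H2-Q7, among 9 members with a window. Both strings were set by hand, and GGGGATTCC is a single fixed spelling. The 4 genes are related heavy chains, so their windows are not independent and the count is a description only. H2-Q4 held GAANNGAAA alone, and B2m, Tap1, Tapbp and H2-T23 held neither string in their windows. Unlike those shown, the windows of H2-D1, H2-Q4, B2m, Tap1, Tapbp and H2-T23 overlapped annotated exons. For Tapbp and H2-D1 the window lay inside the annotated span of the gene. A string missing from such a window does not show that the promoter lacks it. H2-D1, with both strings in its window, differed less between the libraries than H2-K1, H2-Q6 and H2-Q7.

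The heavy chain genes resemble each other, and a read that fits more than 1 gene is not counted. In the last 500 bases of each annotated coding transcript, where 3′ reads fall, the share of 91-base words found in transcripts of another gene was at most 0.244% for H2-K1 and 0% for H2-D1, B2m, Tap1, Tap2 and Tapbp. It was 9.27% for H2-Q4 and 12.9% for H2-T23, mostly with genes outside the family. For H2-Q6 it was 10.5% in the longer transcript and 42.7% in the shorter one, which shared words with H2-Q7, H2-Q1 and other class I genes. For H2-Q7 it lay between 0 and 5.85% over 4 transcripts. H2-Q8 and H2-Q9, close relatives of H2-Q6 and H2-Q7, are not among the counted genes, and whether their reads were counted for another Q gene is not known. The levels and ratios of H2-Q6 and H2-Q7 are uncertain as those of single genes, and the 2 genes are also given as a sum, which may hold reads of these relatives.

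H2-K1 and H2-D1, the classical heavy chains of this strain, were the most abundant members in adult cells, and both were higher in adult than in neonatal cells. H2-K1 had 953 CPM (95% interval 938 to 968) in neonatal cells and 1681 CPM (1667 to 1694) in adult cells. The log2 ratio of adult over neonatal was 0.82 (0.79 to 0.84), a difference of 1.76-fold. H2-D1 had 1548 CPM (1529 to 1567) and 2094 CPM (2079 to 2109), a log2 ratio of 0.44 (0.41 to 0.46). Among all genes ranked by level, H2-K1 stood at place 144 in neonatal and 106 in adult cells, and H2-D1 at 115 and 99. UMIs count molecules at the 3′ end, so these levels do not scale with transcript length.

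The Q genes encode non-classical heavy chains, and H2-Q6 and H2-Q7 belong to those that make the Qa-2 antigen of lymphocytes. H2-Q7 showed the largest difference of the 10 genes. It had 76.1 CPM (71.9 to 80.4) in neonatal cells and 377 CPM (371 to 384) in adult cells, which is 4.96-fold (log2 ratio 2.31, 2.23 to 2.39). Only 0.579% of the 10703 genes with at least 50 UMIs had a larger ratio toward the adult library. H2-Q6 had 52.8 CPM (49.3 to 56.4) and 152 CPM (148 to 156), a 2.88-fold difference (log2 ratio 1.53, 1.42 to 1.63). Summed, H2-Q6 and H2-Q7 had 129 CPM and 529 CPM, a log2 ratio of 2.04 (1.97 to 2.10). H2-Q4, a neighbour that encodes the Qb-1 chain, had 121 CPM (116 to 126) and 169 CPM (164 to 173), a log2 ratio of 0.48 (0.40 to 0.55).

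H2-T23 encodes Qa-1b, the chain that presents leader peptides of other class I chains to NK cell receptors. It had 297 CPM (288 to 305) in neonatal and 374 CPM (368 to 381) in adult cells, a log2 ratio of 0.34 (0.29 to 0.38). B2m, the shared light chain, had nearly the same ratio. Its level was 988 CPM (973 to 1003) in neonatal and 1250 CPM (1238 to 1262) in adult cells, a log2 ratio of 0.34 (0.31 to 0.37).

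The peptide loading genes were the lowest of the set in adult cells, and Tap2 and Tapbp differed least between the libraries. Tap1, the first chain of the transporter, had 70.9 CPM (66.9 to 75.1) in neonatal and 102 CPM (98.4 to 105) in adult cells, a log2 ratio of 0.52 (0.43 to 0.62). Tap2, the partner chain, had 70.7 CPM (66.6 to 74.8) and 66.7 CPM (64.0 to 69.4), with a log2 ratio of -0.08 (-0.19 to 0.02). Tapbp had 116 CPM (111 to 121) and 122 CPM (118 to 125), with a log2 ratio of 0.07 (-0.01 to 0.15). The intervals of Tap2 and Tapbp included 0. Tap1 and Tap2 had nearly the same CPM in neonatal cells, whereas in adult cells Tap1 was above Tap2.

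**Figure D1:**
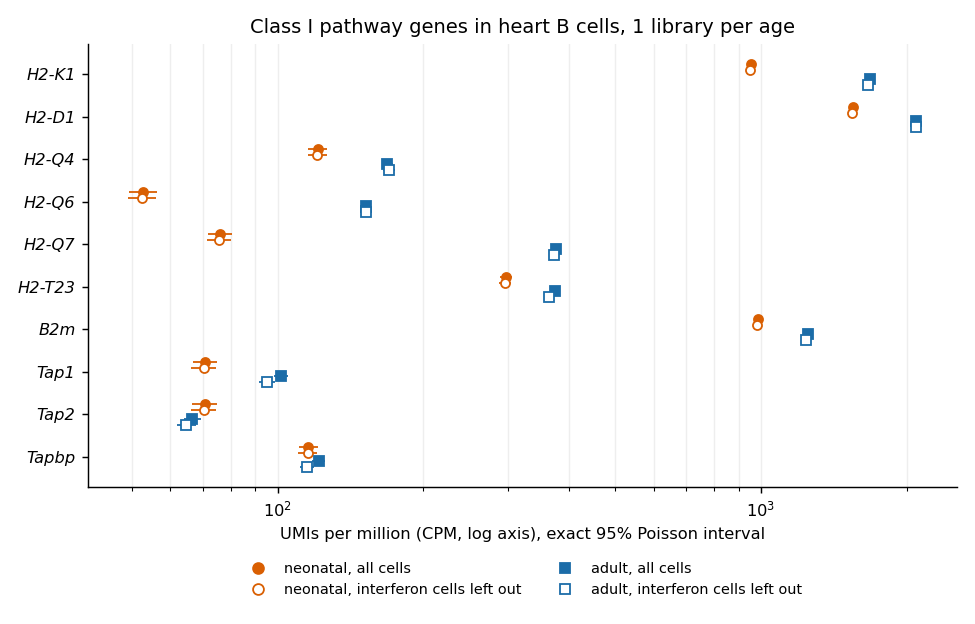
Level of each gene in CPM on a log axis, with exact 95% Poisson intervals, in 2077 neonatal cells (circles) and 3611 adult cells (squares), with all cells (filled) and with interferon cells left out (open). H2-Q7 lies at 76.1 CPM in the neonatal and 377 CPM in the adult library, and for each gene the open symbol lies close to the filled one, with Tap1 and Tapbp moving most.

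By a rule of at least 1.5-fold, which stands in for a test here, 3 of the 10 members (H2-K1, H2-Q6 and H2-Q7) were higher in the adult library, where 7.82% of all 10703 genes were. None of the 10 was at least 1.5-fold higher in the neonatal library, where 12.2% of all genes were. The median log2 ratio over the members was 0.46, and over all genes it was -0.13. A CPM is a share of the UMIs of the cells, so every ratio is relative to the other genes. Without cells that held 2 or more UMIs of macrophage, T cell, NK cell or neutrophil markers, a selection added after seeing the data, the log2 ratio was 0.82 for H2-K1, 1.56 for H2-Q6 and 2.41 for H2-Q7.

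The order of the levels differed between the ages. In neonatal cells it ran H2-D1, B2m, H2-K1, H2-T23, H2-Q4, Tapbp, H2-Q7, Tap1, Tap2 and H2-Q6, in which the intervals of B2m and H2-K1 did not overlap, those of H2-Q4 and Tapbp did, and so did those of H2-Q7, Tap1 and Tap2. In adult cells it ran H2-D1, H2-K1, B2m, H2-Q7, H2-T23, H2-Q4, H2-Q6, Tapbp, Tap1 and Tap2, in which the intervals of H2-Q7 and H2-T23 overlapped. H2-Q7 stood at place 1813 of all genes by level in neonatal cells and at place 263 in adult cells.

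The 6 heavy chains together had 3048 CPM in neonatal and 4847 CPM in adult cells, a log2 ratio of 0.67 (0.65 to 0.68). Their makeup shifted from H2-D1 toward H2-Q7. Of the heavy chain UMIs, H2-D1 held 50.8% (exact binomial interval 50.4 to 51.2%) in neonatal and 43.2% (43.0 to 43.4%) in adult cells, and H2-K1 held 31.3% and 34.7%. H2-Q7 held 2.50% (2.36 to 2.64%) and 7.78% (7.66 to 7.91%), and H2-Q6 held 1.73% and 3.14%. H2-T23 went from 9.73% to 7.72% and H2-Q4 from 3.97% to 3.48%. For each 100 heavy chain UMIs there were 32.4 B2m UMIs (31.8 to 33.0) in neonatal and 25.8 (25.5 to 26.1) in adult cells, since the heavy chains differed more than B2m did.

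To compare cells at 1 depth, each was thinned to 2000 UMIs. An H2-Q7 UMI was then present in 10.4% (9.12 to 11.8%) of neonatal and 48.6% (47.0 to 50.3%) of adult cells. An H2-Q6 UMI was present in 8.96% and 25.3% of cells. The unthinned shares of H2-Q7 were 28.3% and 80.3%. Free RNA in near-empty droplets, which held a mean of 55.9 and 92.0 UMIs, would put an H2-Q7 UMI in 0.223% of neonatal and 1.48% of adult cells. H2-Q7 made up 120 CPM of that free RNA in the neonatal and 495 CPM in the adult library, so the difference between the libraries was also present outside the cells.

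For H2-K1 and H2-D1 the whole distribution was displaced at this depth. H2-K1 had a median of 2 UMIs per neonatal and 3 per adult cell, and its share of cells with a UMI went from 79.7% to 92.9%. H2-D1 had medians of 3 and 4 UMIs and shares of 93.4% and 97.8%. B2m had a median of 2 UMIs at both ages and shares of 82.1% and 89.9%. H2-T23 was found in 43.3% and 53.3% of cells, H2-Q4 in 21.3% and 28.8%, Tap1 in 12.95% and 16.98%, Tap2 in 13.96% and 12.2%, and Tapbp in 22.8% and 19.99%. Free RNA would give at most 6.67% for any of the 10 genes, the value for H2-D1 in adult cells. Tapbp, whose ratio from summed UMIs was slightly above 0, was thus found in a smaller share of adult cells at this depth. Its log2 ratio from the thinned cells, which rest on a random draw of UMIs, was -0.24. The mean of per-cell CPM, which also weights cells equally, gave -0.04. Without thinning, a Tapbp UMI was held by 53.8% of neonatal and 55.0% of adult cells.

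**Figure D2:**
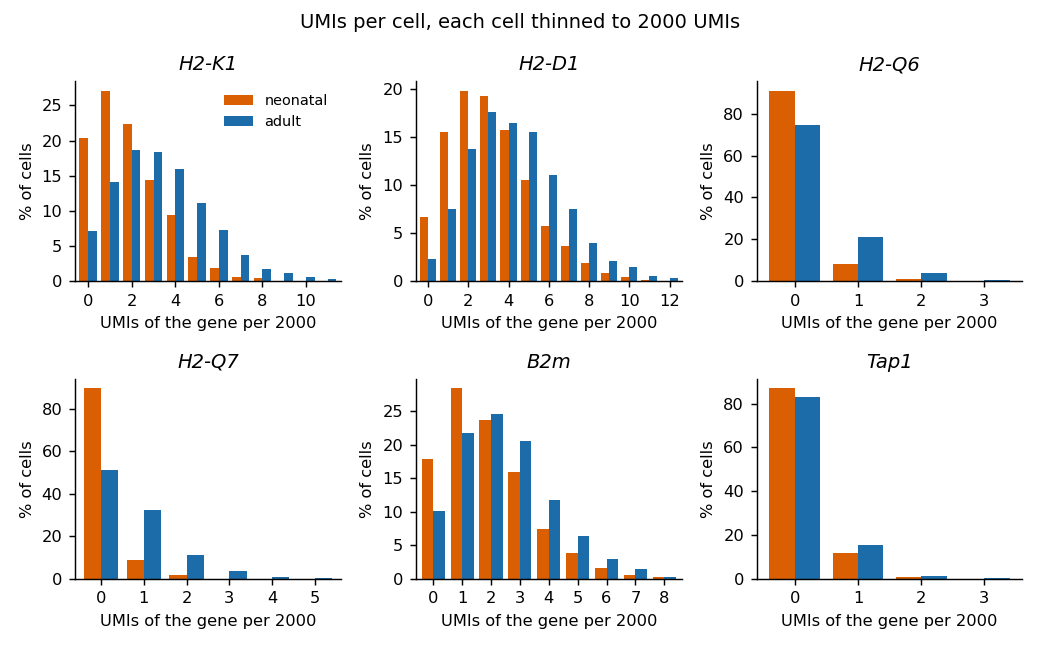
Percent of neonatal and adult cells by the number of UMIs of a gene, after each cell was thinned to 2000 UMIs, for H2-K1, H2-D1, H2-Q6, H2-Q7, B2m and Tap1. The bars of H2-K1 and H2-D1 are displaced to the right in adult cells, and a UMI of H2-Q7 is found in 48.6% of adult against 10.4% of neonatal cells.

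Transcripts of Cr2 (CD21) or Fcer2a (CD23), which mark mature follicular and marginal zone B cells, were found in 1045 of the neonatal and 2962 of the adult cells. The ratios of the class I genes were therefore also taken within classes of cells. In cells with neither transcript (1032 neonatal and 649 adult cells) the log2 ratio was 0.83 (0.79 to 0.88) for H2-K1, 1.21 (1.03 to 1.39) for H2-Q6 and 2.12 (1.99 to 2.25) for H2-Q7. In cells with both transcripts (223 and 1372 cells) it was 0.77 (0.71 to 0.83), 1.51 (1.27 to 1.77) and 2.40 (2.19 to 2.63). B2m had 0.36 in both classes, and H2-D1 had 0.41 in both. The difference between the libraries was thus present within cells of like transcripts, and for H2-Q7 the levels were 90.8 and 394 CPM without Cr2 and Fcer2a, and 71.0 and 376 CPM with both. Within the neonatal library H2-Q7 was lower in cells with Cr2 or Fcer2a than in those with neither, by a log2 ratio of -0.51 (-0.68 to -0.35). In the adult library the same ratio was -0.07, with an interval from -0.14 to just below 0. A cell without a UMI may still make the transcript, and cells with both had more UMIs, with medians of 7163 and 9083 against 5566.5 and 4654.

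The ratio of H2-Q7 also depended on the depth of the cells. In cells of 4000 to under 8000 UMIs (1407 neonatal and 1489 adult cells) H2-Q7 had 54.8 and 361 CPM, a log2 ratio of 2.72 (2.57 to 2.87). In cells with 8000 or more UMIs (546 and 1394 cells) it had 98.4 and 390 CPM, a log2 ratio of 1.99 (1.88 to 2.10). H2-Q6 had log2 ratios of 1.92 and 1.22 in the same bins. In cells of 2000 to under 4000 UMIs (124 neonatal and 728 adult cells) H2-Q7 had 2.47 (1.89 to 3.12), from 24 neonatal UMIs. H2-Q6 had 1.61 (1.01 to 2.29) there. H2-K1 varied little, with 0.86 in cells of 2000 to under 4000 UMIs, 0.85 in the middle bin and 0.79 in the deepest. Tapbp changed sign, with -0.63 (-1.01 to -0.24) in the shallowest bin, -0.05 in the middle and 0.18 (0.07 to 0.29) in the deepest. Tap1 had 0.004 (-0.53 to 0.57), 0.51 and 0.56 in the same order. The deepest bin of both libraries could include doublets, and their part was not tested. Without barcodes that had at least 500 UMIs in both libraries, the log2 ratio of H2-Q7 was 2.47, and with the 5% of cells with most UMIs left out it was 2.55.

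Neonatal mice were of both sexes and adult mice were male, so male neonatal cells (a Y-linked UMI and no Xist UMI, 1279 cells) were set beside adult cells classed in the same way (2819 cells). The log2 ratios were 0.86 (0.83 to 0.89) for H2-K1, 1.60 (1.47 to 1.73) for H2-Q6 and 2.27 (2.17 to 2.37) for H2-Q7. Within the neonatal library, H2-Q6 had 49.9 CPM in male and 68.5 CPM in the 323 female cells, a log2 ratio of male over female of -0.46 (-0.72 to -0.18), and H2-K1 had 931 and 1068 CPM, a log2 ratio of -0.20 (-0.26 to -0.13). H2-Q7 had 78.9 and 85.6 CPM, with a log2 ratio whose interval included 0 (-0.35 to 0.12). The number of animals of each sex is not given in the sources used here.

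**Figure D3:**
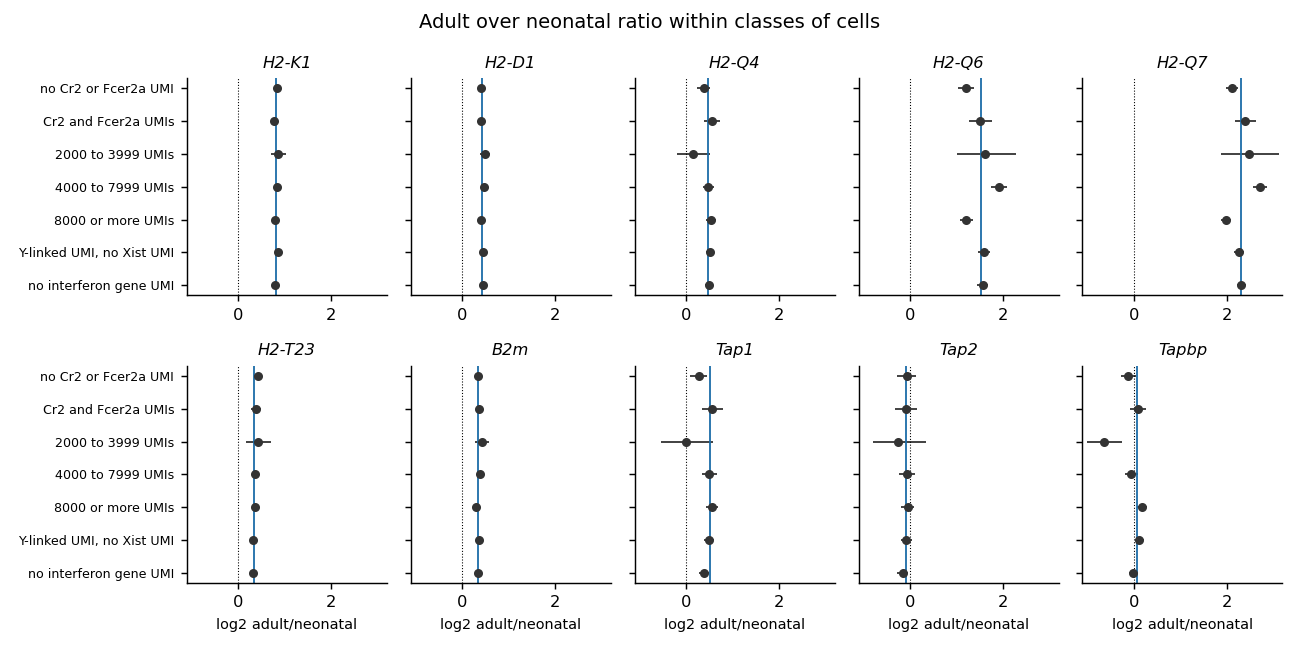
Log2 ratio of CPM, adult over neonatal, of each gene (1 panel each, exact 95% counting intervals) within classes of cells by Cr2 and Fcer2a transcripts, depth, sex-linked transcripts and the absence of interferon gene UMIs. The blue line is the ratio over all cells and the dotted line is 0. H2-K1, H2-Q6 and H2-Q7 lie to the right of 0 in every class, and the points of Tap2 lie near 0.

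Leaving out the interferon cells moved the ratios of the heavy chains and B2m little. Without them H2-K1 had 951 CPM in neonatal and 1667 CPM in adult cells (log2 ratio 0.81), H2-D1 had 1544 and 2095 CPM (0.44), and B2m had 983 and 1241 CPM (0.34). H2-Q7 had 75.8 and 373 CPM (2.30), H2-Q6 had 52.5 and 153 CPM (1.54), and H2-Q4 had 121 and 170 CPM (0.49). H2-T23 went to 296 and 365 CPM, with a log2 ratio of 0.30. Of the loading genes, Tap1 at 70.3 and 95.1 CPM (0.44) and Tapbp at 115 and 115 CPM (-0.01) moved more. Tap2, at 70.3 and 64.8 CPM (-0.12), moved about as little as H2-T23. The same 3 members were at least 1.5-fold higher in the adult library, where 7.16% of 10575 genes were, and none was so in the neonatal library, where 12.1% of genes were. In cells without a UMI of any of the 5 genes (1913 neonatal and 2823 adult cells), the log2 ratio of H2-Q7 was 2.31 and that of Tap1 was 0.39.

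Within the adult library, the 217 interferon cells were set beside the other 3394 cells. Tap1 had 145 CPM (134 to 157) in interferon cells and 95.1 CPM (91.6 to 98.7) in the others, a log2 ratio of 0.61 (0.49 to 0.73). Tapbp had 166 and 115 CPM (0.53, 0.42 to 0.65), Tap2 had 79.1 and 64.8 CPM (0.29, 0.12 to 0.45) and H2-T23 had 436 and 365 CPM (0.26, 0.19 to 0.32). H2-K1 had 1769 and 1667 CPM (0.09, 0.05 to 0.12), H2-Q7 had 406 and 373 CPM (0.12, 0.05 to 0.19) and B2m had 1307 and 1241 CPM (0.07, 0.03 to 0.11). The intervals of H2-D1 (-0.04 to 0.03), H2-Q4 (-0.20 to 0.03) and H2-Q6 (-0.15 to 0.08) included 0. Tap1 alone of the 10 was at least 1.5-fold higher in interferon cells, where 5.19% of 10153 genes were, and none was so in the other cells, where 4.13% of genes were. In these interferon cells the T cell markers summed to 35.6 CPM, the NK cell markers to 8.25 CPM and the macrophage markers to 8.90 CPM. Without cells that held 2 or more UMIs of macrophage, T cell, NK cell or neutrophil markers (206 interferon cells left), the log2 ratio was 0.66 for Tap1, 0.56 for Tapbp and 0.10 for H2-K1. With endothelial markers added to that selection (96 of 217 interferon cells left, and 2602 of 3611 adult cells in all) it was 1.14, 0.85 and 0.28. A deeper cell reaches 2 marker UMIs more readily, and the part of depth in this rise was not tested. With every cell thinned to 2000 UMIs, where 77 cells met the rule, Tapbp had 1.08, Tap2 0.93, Tap1 0.80 and H2-Q7 0.79, all past 1.5-fold. The share of all genes past 1.5-fold was not taken at this depth, so these members cannot be set beside it.

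The result of this comparison changed with depth. The median was 14408 UMIs in interferon cells and 5710.5 UMIs in the others, so cells were compared within bins of depth. This split was not planned. Cells of 2000 to under 4000 UMIs included only 4 interferon cells and are not described. In adult cells of 4000 to under 8000 UMIs (37 interferon and 1452 other cells), all 10 members had a log2 ratio above 0. Tap1 had 287 against 94.4 CPM (1.60, 1.22 to 1.96), Tapbp 266 against 109 CPM (1.29, 0.89 to 1.66) and Tap2 139 against 68.6 CPM (1.02, 0.47 to 1.53). H2-T23 had 738 against 393 CPM (0.91), H2-Q7 628 against 353 CPM (0.83), H2-K1 2412 against 1649 CPM (0.55), H2-Q4 257 against 175 CPM (0.55) and B2m 1564 against 1232 CPM (0.34). H2-D1, at 2327 against 2141 CPM (0.12), and H2-Q6, at 181 against 155 CPM (0.23), had intervals that included 0. By the 1.5-fold rule 5 of the 10 were higher in interferon cells of this depth, where 10.9% of 7835 genes were.

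In cells of 8000 to under 16000 UMIs (79 and 825 cells) the log2 ratios were smaller, with 1.03 for Tap1, 0.75 for Tapbp, 0.54 for H2-T23, 0.22 for H2-K1 and 0.09 for H2-Q7, and 2 of the 10 (Tap1 and Tapbp) passed 1.5-fold, where 6.79% of genes did. In cells with 16000 or more UMIs (97 and 393 cells) no member passed it, where 2.98% of genes did, and the largest ratio was 0.32, for Tapbp. The 5 interferon genes summed to 3917, 2381 and 629 CPM in the interferon cells of the 3 bins. The rule selects on UMIs of these genes and asks for a higher CPM in a shallow cell than in a deep one, so this order is given as a description of the selected cells only. Interferon cells were 2.48%, 8.74% and 19.8% of the cells of these bins, so deeper cells met the rule of 3 genes more often. The part of doublets in the deepest bin was not tested.

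**Figure D4:**
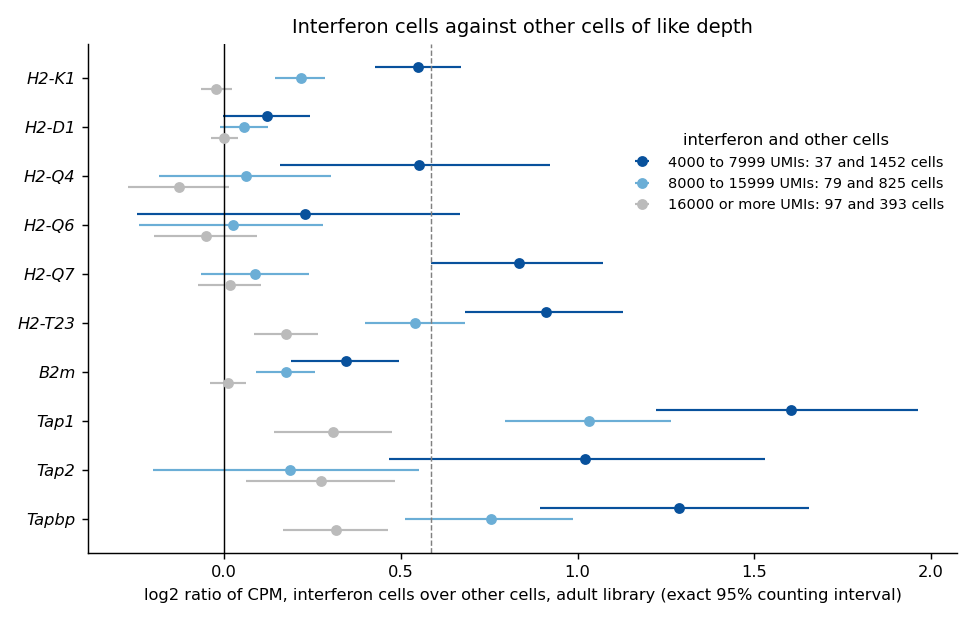
Log2 ratio of CPM of each gene, interferon cells over other cells of the adult library, in 3 bins of UMIs per cell, with exact 95% counting intervals; the dashed line marks 1.5-fold. In cells of 4000 to under 8000 UMIs Tap1 is at 1.60, Tapbp at 1.29 and H2-Q7 at 0.83, and with 16000 or more UMIs every gene is at or below 0.32.

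Over the number of the 5 interferon genes an adult cell held, levels of the loading genes were highest in cells with all 5, though they did not rise at every step. Tap1 had 89.7 CPM in cells with 0 of the genes, 102 with 1, 124 with 2, 114 with 3, 138 with 4 and 175 with all 5. Tapbp had 113, 111, 145, 138, 158 and 194 CPM in the same cells, and Tap2 had 64.4, 66.8, 62.5, 76.3, 75.2 and 83.8 CPM, while H2-Q6 was between 132 and 156 CPM throughout. The log2 ratio of cells with 5 over cells with 0 was 0.96 (0.79 to 1.13) for Tap1, 0.79 (0.62 to 0.95) for Tapbp, 0.39 for H2-T23, 0.38 for Tap2, 0.19 for B2m and H2-Q7, and 0.17 for H2-K1. Cells with 5 genes numbered 103 with a median of 12458 UMIs, and cells with 0 numbered 2823 with a median of 5133. Cells with 1, 2, 3 and 4 genes had medians of 10522, 14516, 16433 and 16944 UMIs. Depth thus did not follow the number of genes held, and its part in these levels was not tested. The 10 neonatal interferon cells were too few for such a series, and the 6 macrophage markers summed to 1961 CPM in them against 90.4 CPM in all neonatal cells. Of the 10 cells, 9 held fewer than 2 UMIs of macrophage, T cell, NK cell or neutrophil markers, so nearly all of that sum lay in the remaining cell. In those 10 cells B2m had 1644 CPM (1425 to 1887) against 983 CPM in the other neonatal cells, and Tap1 had 146 CPM (86.8 to 232) against 70.3 CPM. A single cell of 24484 UMIs held 60 of their 202 B2m UMIs. The part of the macrophage transcripts in these values was not tested.

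Other genes of the pathway were taken from 5 lists. Of the 5 immunoproteasome and PA28 genes, 2 were at least 1.5-fold higher in the adult library, where 7.82% of all genes were, and none was so in the neonatal library, where 12.2% were. Psmb8, a catalytic subunit of the immunoproteasome, had 323 CPM in neonatal and 528 CPM in adult cells (log2 ratio 0.71, 0.67 to 0.75), and Psmb9, another, had 121 and 219 CPM (0.85, 0.78 to 0.92). None of the 3 constitutive subunits passed in either direction, with Psmb5 at 141 and 127 CPM (-0.15) and Psmb6 at 136 and 125 CPM (-0.12). Of 5 chaperones and trimming enzymes, Pdia3, which stabilizes the loading complex, passed with 119 and 191 CPM (0.68, 0.60 to 0.75).

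Of the other class I and class I-like genes, 5 of the 7 with at least 50 UMIs were at least 1.5-fold higher in the adult library, where 7.82% of all genes were. H2-T22, a ligand of gamma delta T cell receptors, had 52.7 and 125 CPM (1.24, 1.14 to 1.35), H2-M3, which presents formylated peptides, had 46.4 and 83.2 CPM (0.84), and H2-Q10 had 20.4 and 34.9 CPM (0.78). H2-T24 had 7.62 and 12.4 CPM (0.70) and Mr1, which presents vitamin B metabolites, had 1.59 and 3.03 CPM (0.94, 0.31 to 1.62). H2-Q10 and H2-T22 have near-identical relatives, and their counts are uncertain for that reason. Of 8 regulators, 2 were at least 1.5-fold higher in the adult library (7.82% of all genes) and 1 in the neonatal library (12.2%). Those higher in the adult library were Nlrc5 with 5.55 and 12.5 CPM (1.17, 0.84 to 1.51) and Stat2 with 21.6 and 33.2 CPM (0.62). Irf1, a factor that interferon gamma induces, was higher in the neonatal library, with 90.6 and 52.6 CPM, a log2 ratio of -0.78 (-0.88 to -0.68). The median log2 ratio was 0.25 for the immunoproteasome list, -0.15 for the constitutive subunits, 0.23 for the chaperones, 0.78 for the other class I genes and 0.19 for the regulators, beside -0.13 for all genes.

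Without interferon cells 7.16% of 10575 genes were at least 1.5-fold higher in the adult library. Psmb8, Psmb9, Pdia3, H2-T22, H2-M3, H2-Q10, Mr1 and Nlrc5 kept this difference, whereas H2-T24 (log2 ratio 0.47) and Stat2 (0.29) did not. In adult interferon cells against the others, 5.19% of 10153 genes were at least 1.5-fold higher, and no gene of the proteasome and chaperone lists was. Those lists are short, so their lack of calls is not read as a result about them. All 5 immunoproteasome and PA28 genes had a log2 ratio above 0, with Psmb9 at 0.54 and Psmb8 at 0.34. H2-T24 had a log2 ratio of 1.29, H2-T22 of 0.79, Stat2 of 1.58 and Nlrc5 of 1.41, and Irf9, named here after its value was seen, had 0.74.

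**Figure D5:**
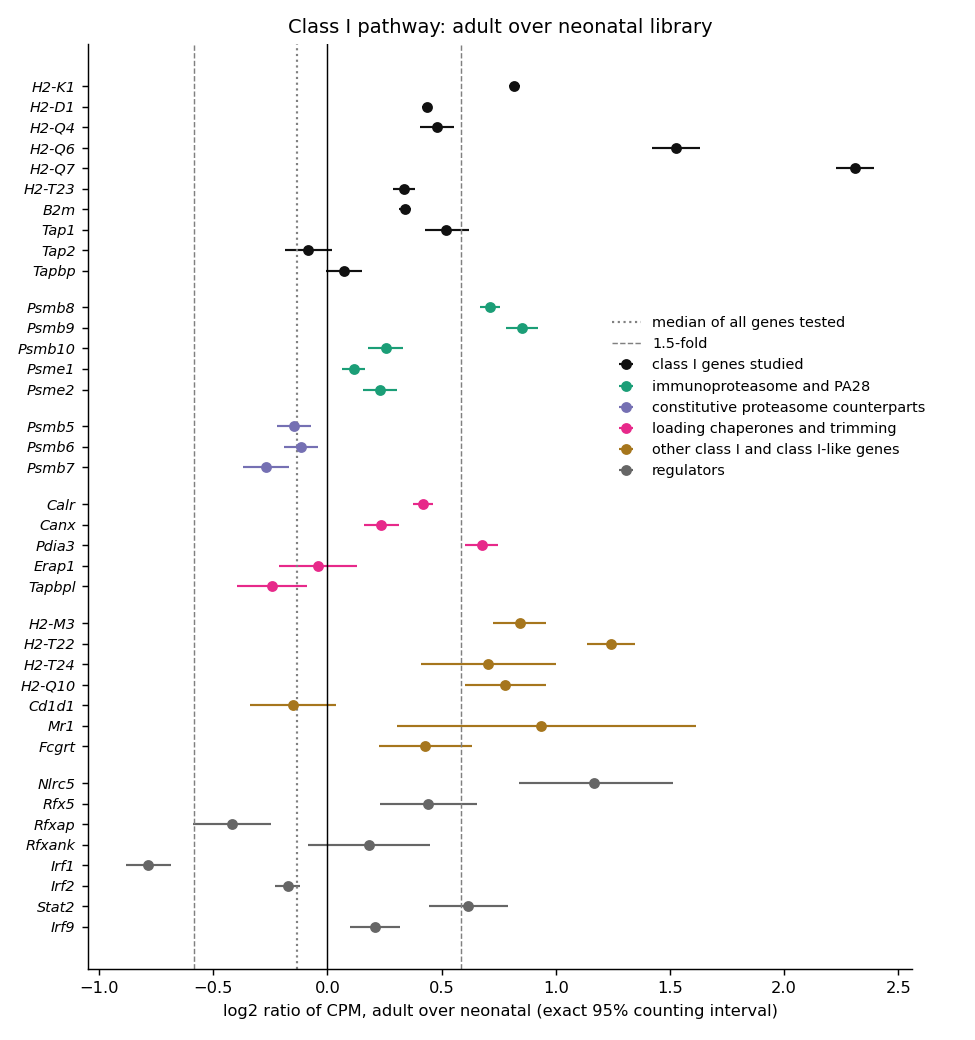
Log2 ratio of CPM, adult over neonatal, of the 10 genes and of the pathway genes with at least 50 UMIs, by list, with exact 95% counting intervals; dashed lines mark 1.5-fold and the dotted line the median of all genes, -0.13. H2-Q7 at 2.31 and H2-Q6 at 1.53 lie farthest to the right, and Irf1 at -0.78 farthest to the left.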

How the data were processed

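Per the labels and the study's methods, heart B cells were sorted on 1 day and sequenced with Chromium Single Cell 3′ v3. The authors counted UMIs with Cell Ranger on mm10 (3.0.2 in the file headers, another version in the methods). The deposited values are UMI counts for every gene and barcode, empty droplets included, with no normalization. By default this software does not count reads that fit several genes, and the annotation version is not given in the sources used here.

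Cells were droplets with at least 2000 gene UMIs, at most 10% mt- UMIs and at least 1 Cd79a UMI. The 3 antibody rows were not used, and no doublet caller was run. UMIs were summed over the cells of each library (groups from the labels, 1 library per age) and scaled to the total of those cells (CPM). Totals were 16403180 neonatal and 34623240 adult UMIs. Intervals are exact: Poisson for levels, conditional binomial for ratios and Clopper-Pearson for shares. A difference of at least 1.5-fold among genes with at least 50 UMIs stands in for a test. Free RNA came from droplets of ranks 45000 to 90000. Software was scipy 1.17.1, pandas 2.3.3, numpy 2.4.6, Biopython 1.88 and matplotlib 3.10.9 under Python 3.11.15, and the calculations were tested on simulated data. Positions and transcripts came from GENCODE on GRCm38, in which 99.9% of the counted gene identifiers were found, and promoters from RefSeq for 9 of the 10 members.

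The members and lists were chosen with earlier results of these data known. Named genes are all members, the 5 interferon genes, and of each list those at least 1.5-fold different or, failing that, the 2 with most UMIs. Alternatives changed the scaling, weighting, depth, cell limits, cell types, sex, free RNA, shared barcodes and the number of interferon genes. 3 were added after seeing the data: the removal of other cell types without endothelial markers, and 2 depth bins. 1 regulator and 1 B cell marker of the lists are not reported here.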

Additional observations from a re-analysis of the deposited data

How the results depend on the processing

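No paired analysis was possible because each age has 1 library. The ratios of H2-K1, H2-D1, H2-Q4, H2-Q6, H2-Q7, H2-T23, B2m and Tap1 kept their sign under all 19 alternatives, and H2-K1 (0.77 to 0.95), H2-Q6 (1.18 to 1.92) and H2-Q7 (1.59 to 2.72) stayed past 1.5-fold. Tap2 ranged from -0.17 to 0.10 and Tapbp from -0.24 to 0.20. Median-of-ratios scaling, which moved all ratios by 0.13 on the log2 scale, raised the members at least 1.5-fold higher in the adult library from 3 to 5, with H2-Q4 (0.61) and Tap1 (0.65). All genes moved alike, and their share past 1.5-fold under this scaling was not taken, so the higher count says nothing particular to the members. A mitochondrial limit of 5% gave 4 such members, with Tap1 (0.80) added, also without that share. The neonatal and adult shares of interferon cells were 0.0963% and 2.13% at 2000 UMIs per cell, 1.40% and 9.28% with 2 or more of the genes, 0.0963% and 4.24% with 4 or more, and 3.33% and 3.85% with a mitochondrial limit of 5%, which kept 60 neonatal and 156 adult cells. The adult share was 9.82% with at least 5000 UMIs and 4.81% without the 5% of cells with most UMIs. It was 3.69% without cells that held 2 or more UMIs of other cell types' markers, endothelial ones included. In bins added after seeing the data it was 2.48% at 4000 to under 8000 and 8.74% at 8000 to under 16000 UMIs. Under the mitochondrial limit of 5%, which left 6 interferon cells, every member had a ratio of interferon over other adult cells below 0. Tap1 turned to -1.55, H2-Q4 had -1.60, H2-T23 -0.76 and H2-K1 -0.48, and the cause was not tested. In the other 16 of 17 alternatives the ratio of Tap1 was between 0.55 and 1.60. Past 1.5-fold in interferon cells was Tap1 alone in the comparison as reported, where 5.19% of genes were. At 2000 UMIs per cell Tapbp (1.08), Tap2 (0.93) and H2-Q7 (0.79) were too, but the share of all genes there was not taken. By the mean of per-cell CPM Tap1 (1.02) and Tapbp (0.78) were past it. In cells with at least 5000 UMIs neither was, with 0.55 and 0.51, and these 2 settings also lack that share. Of the 17 alternatives, 15 kept the call of Tap1 and 11 that of Tapbp. Depth limits the detection of rarer genes most, but its part in these changes was not tested. At 2000 UMIs per cell 77 adult cells met the rule instead of 217, and the part of this was not tested either. No alternative measures the difference between mice or between library preparations.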
